A study of Mus musculus with 9 samples.

Results

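Common dendritic cell progenitors (CDPs) of mouse bone marrow were compared by whether they carried the green fluorescence of a Zbtb46-GFP reporter. The comparison rests on 6 of the 9 arrays of the series, 3 titled Zbtb46+ CDPs and 3 titled Zbtb46- CDPs, chosen by their titles. It covers all 19938 genes that had a probe set with a single gene symbol. The other 3 arrays, of pre-CD8 DCs, entered the model fit to estimate the spread between arrays. All 3 groups came from mice heterozygous for the Zbtb46-GFP reporter, so both CDP groups carry the same altered Zbtb46 allele and differ by the sort. Marrow was taken from pelvis, tibia and femur, red cells were lysed, and cells were sorted by flow cytometry into medium with the DC growth factor Flt3L. The labels give neither the sort gates nor the age, sex or strain of the mice, nor whether a replicate was a separate mouse, a pool or a sorting day. Each p-value therefore measures the spread between these arrays, which may be technical. RNA was labelled with a kit made for picogram to nanogram amounts and hybridized to Affymetrix arrays.

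CDPs are the marrow progenitors that give rise to plasmacytoid and classical dendritic cells (DCs). Zbtb46 encodes a zinc finger repressor that is switched on in cells bound for the classical DC fate and is absent from plasmacytoid DCs. Classical DCs take up, cut and display antigen on MHC class II molecules, and they fall into cDC1, which excel at presenting to CD8 T cells, and cDC2. Progenitors in general divide fast and spend much of their resources on making ribosomes. The series compares these sorted stages to learn what sets apart the CDPs that already express Zbtb46.

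Values are log2 of the deposited RMA signal, which summarizes the probes of a gene after background correction and scaling. Differences are given as Zbtb46+ minus Zbtb46- CDPs on that scale, so 1 unit is a doubling of signal. The number of arrays limits the precision, and the arrays were alike in median signal (110.2 to 118.0). A gene was called where the Benjamini-Hochberg adjusted p of the limma model over all genes was under 0.05. A call is termed stable here where it was also made in the same direction without replicate 1 of both CDP groups and after quantile normalization of the arrays, and where the 3 arrays of the groups did not overlap. Since no detection calls were used, log2 signals up to 6.82, the median of the whole table, are called dim and may be background. Differences that start or end there are given as at least their value. In sorted bulk samples, fewer cells with a transcript and less of it per cell cannot be told apart.

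The sorted cells carried the transcripts that define CDPs. Flt3, the receptor of the main DC growth factor, ran from 11.13 to 11.25 in Zbtb46- and from 10.47 to 10.97 in Zbtb46+ CDPs. Csf1r, the receptor of macrophage colony-stimulating factor, ran from 11.14 to 11.33 and from 10.19 to 10.37. Kit, the stem cell factor receptor, lay between 10.34 and 10.99 on all 6 arrays, and Il7r, a receptor that CDPs lack, between 4.76 and 6.42. Zbtb46 read 6.27, 6.92 and 6.41 in replicates 1, 2 and 3 of the Zbtb46- CDPs and 7.50, 7.05 and 7.18 in the Zbtb46+ CDPs, an order of replicates kept throughout. The groups did not overlap, but the gap between them was narrow and the Zbtb46- level was dim. The difference was 0.71 (SE 0.175, adjusted p = 0.0261) and 0.45 without replicate 1 of both groups (adjusted p = 0.0891), and the call was also lost without Zbtb46- replicate 1, Zbtb46- replicate 3 or Zbtb46+ replicate 3 alone. The sort used this gene's reporter, so its value is a check of the labels. Of the list of well-known cDC1 markers, 13 of 27 measured genes were higher and 0 lower, 12 of them stably. Zbtb46 itself is in that list, among the 13 but not among the 12. These markers are left aside below.

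Replicate 1 stood apart in both CDP groups. Xist, the noncoding RNA of the inactive X chromosome, read 5.59, 12.29 and 12.15 in Zbtb46- and 5.30, 12.20 and 12.18 in Zbtb46+ CDPs. The Y-linked gene Kdm5d read 7.65, 4.99 and 4.81 and then 6.93, 4.82 and 4.80, so replicate 1 was the only array of each group high in it. Ngp, a secondary granule protein of neutrophils, read 10.48, 5.70 and 6.84 in Zbtb46- and 12.36, 5.39 and 5.73 in Zbtb46+ CDPs. Over a list of 14 neutrophil secondary and tertiary granule genes the summed signal was 5945, 1212 and 1540 and then 19316, 1176 and 1073, and 7 of the 14 were over 1 log2 unit above the other arrays of the group in both replicates 1. Counting all genes, 14 were that far above and 6 that far below in both groups. Xist, the Y-linked genes and the other members of these short lists were picked after their values were seen. The part of replicate 1 in any single result was not tested. Stable calls are those also made without it in both groups.

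In all, 768 genes (3.85% of 19938) were higher and 2105 (10.6%) lower in Zbtb46+ CDPs. Of those called, 26.7% were higher. Without replicate 1 of both groups 1737 (8.71%) were higher and 2758 (13.8%) lower, a share of 38.6% higher. After quantile normalization there were 1216 (6.1%) and 1572 (7.88%), a share of 43.6% higher. Leaving out a single array moved the counts most for Zbtb46+ replicate 1 (1999 higher and 3269 lower), Zbtb46- replicate 3 (452 and 1341) and Zbtb46- replicate 1 (601 and 1310). No gene called in the main model was called in the opposite direction in any of the fits run. Stable calls comprised 645 higher genes (3.24%) and 1421 lower ones (7.13%). Among them, 170 higher and 290 lower genes differed by over 1, and 34 higher and 13 lower ones by over 2. The 3 arrays of the groups did not overlap in 11.8% of genes upward and 17.4% downward.

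Much of the imbalance between the directions followed brightness. With genes cut into deciles of mean signal, the median difference was 0.11 in the dimmest decile, and in the 4 brightest deciles it lay between -0.14 and -0.17. After quantile normalization the medians of all deciles lay between -0.06 and 0.07. The median over all genes was 0.04. Among the 6612 genes with a mean log2 signal over 8, 6.91% were called higher and 21.2% lower as deposited, and 13% and 13.8% after quantile normalization. Stable calls among these brighter genes were 6.59% higher and 13.4% lower, and the counts of bright gene lists below are read against these shares. The lists were written with earlier results of these data known, so an excess over these shares describes a list and does not test it.

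**Figure D1:**
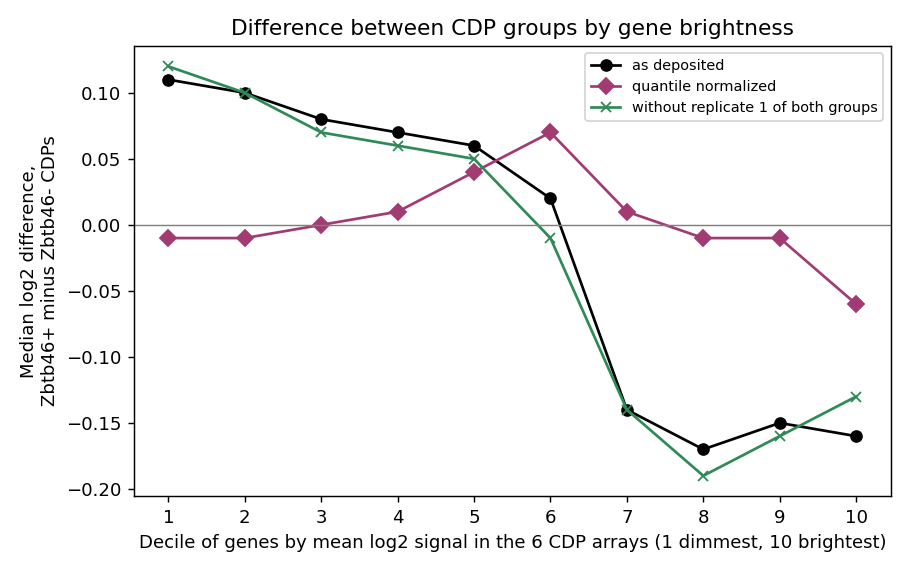
Median log2 difference between Zbtb46+ and Zbtb46- CDPs (vertical axis) over deciles of the 19938 genes ordered by mean log2 signal in the 6 CDP arrays (horizontal axis, 1 dimmest). Black circles are the values as deposited, which run from 0.11 in the dimmest decile to -0.16 in the brightest, purple diamonds the quantile normalized values, which stay between -0.06 and 0.07, and green crosses the values without replicate 1 of both groups.

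Among the largest stable rises beyond the cDC1 markers were a lysosomal gene and the MHC class II genes. Plbd1, a phospholipase B-like lysosomal protein, read 7.74, 6.10 and 6.53 in Zbtb46- and 11.95, 11.65 and 11.53 in Zbtb46+ CDPs. It was at least 4.92 higher (SE 0.344, adjusted p = 5.24e-05), with a gap of several units between the groups. H2-Aa, an MHC class II alpha chain, read 6.94, 5.90 and 5.49 and then 11.87, 10.75 and 10.66, at least 4.98 higher and 5.01 without replicate 1. H2-Ab1, the beta chain, read 8.56, 7.51 and 7.63 and then 11.65, 10.24 and 10.45 (2.88, SE 0.372). In both of these MHC genes replicate 1 was the highest array of its group, by 1.25 and 1.16 in H2-Aa and by 0.99 and 1.31 in H2-Ab1. Cd74, the invariant chain that guides MHC class II molecules, read 6.48, 6.23 and 5.66 and then 11.58, 9.55 and 9.44. Its difference of at least 4.07 was 3.55 without replicate 1, and its Zbtb46+ arrays were the most scattered of these genes.

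Receptors known from lymphocytes were among the leading genes on the higher side. Slamf7, a SLAM family receptor, read 5.42, 5.47 and 5.56 in Zbtb46- and 9.68, 9.23 and 9.29 in Zbtb46+ CDPs, at least 3.91 higher (SE 0.114, adjusted p = 1.44e-06). Cd226, an activating adhesion receptor of T and NK cells, read 5.29, 5.72 and 5.18 and then 8.72, 8.69 and 8.69, at least 3.30 higher. Cd7 read 9.11, 7.62 and 7.89 and then 11.47, 10.98 and 11.04 (2.96, SE 0.334). Cd22, an inhibitory lectin of B cells that binds sialic acid, read 7.99, 7.65 and 7.46 and then 10.66, 10.29 and 10.14 (2.66). In these 4 genes every Zbtb46+ array lay above every Zbtb46- array. Of 11 measured B cell markers, Cd22 included, 2 were higher and 2 lower, and 5 were dim on all CDP arrays. Their summed signal was 1616, 1401 and 1383 in Zbtb46- and 2644, 2364 and 2229 in Zbtb46+ CDPs. Cd22 was the brightest of the 11 and weighs most in this sum, which therefore does not describe the other B cell markers. The median difference of the list was 0.02. Of 13 T, NK and innate lymphoid markers 1 was higher and 0 lower, 10 were dim on all CDP arrays, and the sums were 1240, 973 and 948 and then 1394, 976 and 975. The part of such cells in these values was not tested.

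Across the wider list of SLAM, immunoglobulin superfamily and lymphoid receptors, 11 of 53 were higher and 12 lower, with a median of 0.11. There were 16 higher and 10 lower without replicate 1 of both groups, 13 and 11 after quantile normalization, and 18 and 8 with both. The leading fall of all genes was in this list. Cd69, which retains lymphocytes in tissue and marks early activation, read 10.29, 10.22 and 10.13 in Zbtb46- and 7.41, 7.10 and 7.13 in Zbtb46+ CDPs (-3.0, SE 0.103, adjusted p = 2.1e-06). Cd27, a costimulatory receptor of the TNF receptor family also found on progenitors, read 9.69, 8.93 and 9.28 and then 7.29, 7.42 and 7.42 (-1.92). Clec7a, the fungal glucan receptor also called dectin 1, read 9.64, 9.60 and 9.95 and then 8.12, 8.11 and 8.11 (-1.62). Each of these falls was between -1.47 and -3.06 under both checks. Cd300lb, an activating receptor of myeloid cells, fell by at least 1.79.

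Integrins and adhesion molecules were also divided, 11 of 50 higher and 8 lower (median 0.08), and 7 higher without Zbtb46- replicate 3. L1cam, a neural and leukocyte adhesion molecule, read 7.77, 7.17 and 7.14 in Zbtb46- and 10.62, 10.25 and 10.23 in Zbtb46+ CDPs (3.0, SE 0.175). The integrin beta 2 chain gene Itgb2, shared by the leukocyte integrins, read 8.48, 7.97 and 7.87 and then 10.97, 10.21 and 10.28 (2.38). Itgb7, whose product pairs with integrin alpha 4 or alpha E, was 1.66 higher and the tetraspanin Cd9 1.59 higher. On the lower side stood Cd93, a lectin-like receptor of progenitors, with 11.87, 11.85 and 11.78 and then 9.98, 10.05 and 10.09 (-1.79, SE 0.075). Cd34, the sialomucin of early progenitors, read 11.72, 11.64 and 11.61 and then 10.72, 10.49 and 10.45 (-1.10). The arrays of the groups were well apart in both.

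**Figure D2:**
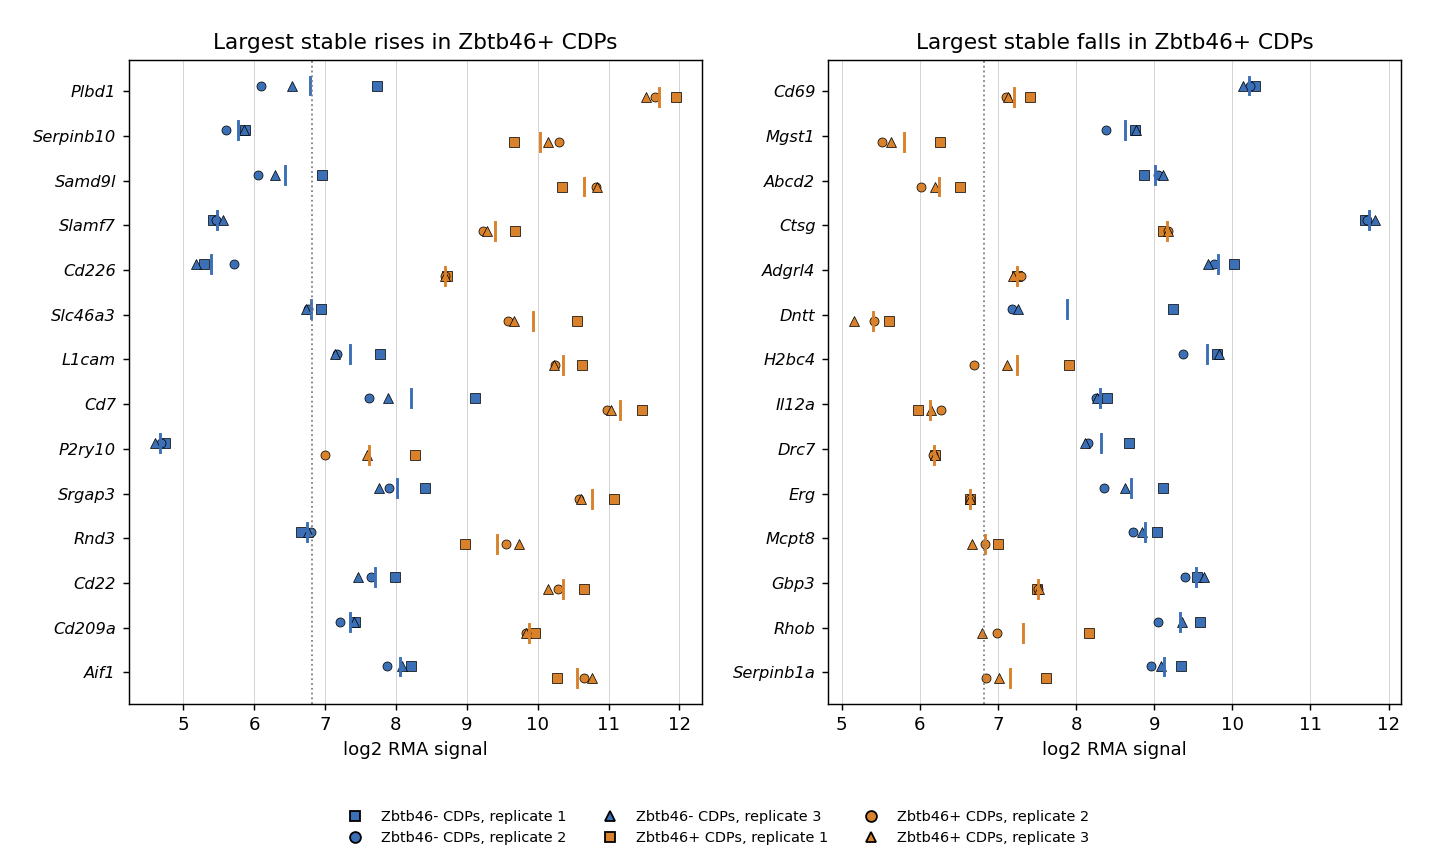
Log2 RMA signal (horizontal axis) of leading stable genes on each CDP array, for rises on the left (MHC class II genes left out) and falls on the right. Blue marks are Zbtb46- and orange marks Zbtb46+ CDPs, squares, circles and triangles are replicates 1, 2 and 3, short bars are group means, and the dotted line is the table median of 6.82. In each gene drawn the 3 arrays of a group lie on the same side of the other group, as in Cd69, where Zbtb46- arrays read 10.13 to 10.29 and Zbtb46+ arrays 7.10 to 7.41.

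Serpinb10, an intracellular serine protease inhibitor, read 5.87, 5.61 and 5.86 in Zbtb46- and 9.66, 10.30 and 10.14 in Zbtb46+ CDPs, at least 4.26 higher (SE 0.183). Slc46a3, a lysosomal solute transporter, read 6.95, 6.76 and 6.73 and then 10.56, 9.58 and 9.66, at least 3.12 higher. Rnase6, a secreted antimicrobial ribonuclease, was 2.32 higher, and Lgals3, the galactoside-binding lectin galectin 3, was 2.13 higher. In the opposite direction, Mgst1, a membrane glutathione transferase, read 8.76, 8.38 and 8.77 and then 6.26, 5.52 and 5.63 and fell by at least 2.83. Abcd2, a peroxisomal fatty acid transporter, read 8.87, 9.05 and 9.11 and then 6.51, 6.02 and 6.20 and fell by at least 2.76. The nearest arrays of the groups were over 2 units apart in both of these genes.

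Most genes in a list of markers of the primary, or azurophil, granules were lower. Ctsg, cathepsin G, read 11.70, 11.72 and 11.83 in Zbtb46- and 9.11, 9.18 and 9.18 in Zbtb46+ CDPs (-2.59, SE 0.094). Mpo, myeloperoxidase, read 13.63, 13.66 and 13.59 and then 12.62, 11.59 and 11.52 (-1.71, and -2.07 without replicate 1). Elane, neutrophil elastase, did not pass the test (-1.62, adjusted p = 0.134), with 11.47, 11.21 and 11.37 and then 11.65, 8.87 and 8.68. Its Zbtb46+ replicate 1 was the highest of the 6 arrays and the other Zbtb46+ arrays were the lowest, and without replicate 1 of both groups the difference was -2.51 (adjusted p = 1.11e-05). This list of 8 genes also holds genes that encode no granule protease, such as the chaperone gene Calr. In it 5 genes were lower, 7 without replicate 1 and 4 after quantile normalization, and none was higher. Its summed signal was 30575, 30034 and 30455 in Zbtb46- and 16953, 9566 and 9533 in Zbtb46+ CDPs.

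Other secreted and defence proteins went both ways, 7 of 56 measured members higher and 9 lower with a median of 0.03. Leaving out Zbtb46+ replicate 1 raised the higher count to 12. F13a1, the A chain of coagulation factor XIII and a monocyte marker outside that list, read 11.79, 12.07 and 11.99 in Zbtb46- and 9.90, 10.17 and 10.18 in Zbtb46+ CDPs (-1.87). Serpinb1a, which inhibits neutrophil proteases, was at -1.97, the cystatin Cst7 at -1.35 and the collagenase Mmp8 at -1.65 (the last to a dim level). Adam8, a membrane sheddase, was 1.40 higher.

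Within several gene families members moved in opposite directions, and no family count is given because the pairs were chosen from their values. Zeb1 and Zeb2 encode related zinc finger repressors. Zeb1 read 7.83, 7.15 and 6.97 in Zbtb46- and 9.40, 8.94 and 8.94 in Zbtb46+ CDPs (1.78, SE 0.223). Zeb2 read 10.34, 10.47 and 10.38 and then 8.50, 8.59 and 8.59 (-1.83, SE 0.081), so the order of the groups was turned around between them. Among receptors for extracellular nucleotides and related lipids, P2ry10 read 4.74, 4.69 and 4.60 and then 8.27, 7.0 and 7.59, at least 2.94 higher. P2rx7, the ATP-gated channel that triggers inflammasomes, read 9.91, 9.95 and 9.86 and then 8.31, 8.38 and 8.37 (-1.56, SE 0.076). P2rx4 (-1.10), P2ry2 (-1.39) and P2rx1 (-0.68) were lower too, the last 2 down to dim levels. P2ry6, a receptor for UDP, read 6.56, 6.26 and 6.33 and then 8.65, 7.36 and 7.38, at least 1.42 higher (1.08 without replicate 1). Its call was lost without Zbtb46- replicate 3.

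Adhesion G protein-coupled receptors split likewise. Adgre5, the leukocyte receptor CD97, read 6.91, 6.96 and 6.88 in Zbtb46- and 9.87, 8.96 and 8.94 in Zbtb46+ CDPs (2.34). Adgrl4, known from endothelial cells, read 10.02, 9.77 and 9.69 and then 7.24, 7.29 and 7.19 (-2.59, SE 0.102). Adgra2 was 1.45 higher, and Adgrg3 (-1.84), Adgrg1 (-1.27) and Adgrg7 (-1.91) were lower. Of the wider list of G protein-coupled receptors and their regulators, 13 of 60 were higher and 7 lower (median 0.13). Leaving out Zbtb46- replicate 1 or Zbtb46+ replicate 2 brought the lower count to 4.

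The guanylate-binding proteins, GTPases induced by interferon, also parted. Gbp3 read 9.55, 9.40 and 9.64 in Zbtb46- and 7.50, 7.51 and 7.53 in Zbtb46+ CDPs (-2.02). Gbp7 was at -1.51, and Gbp5 fell by at least 1.77. Gbp4 read 5.53, 5.53 and 5.36 and then 5.91, 6.30 and 6.45, a difference of 0.75 between dim levels. Gbp9 read 7.21, 7.12 and 6.69 and then 7.49, 7.78 and 7.40 (0.55, adjusted p = 0.0356), a call lost without Zbtb46- replicate 2, Zbtb46- replicate 3 or Zbtb46+ replicate 2. These paralogs are alike in sequence, so signal of a given member may include that of another. Beyond the family, Samd9l, an interferon-induced antiviral factor, read 6.96, 6.06 and 6.29 and then 10.34, 10.82 and 10.83, at least 4.23 higher (SE 0.219). Of the whole list of interferon-inducible GTPases, Ifi200 and Schlafen genes 10 of 37 were higher and 9 lower, 6 of the latter stably. Without Zbtb46- replicate 3 the lower count was 5. The Ifi200 members Ifi207 and Ifi203 were 1.90 and 1.27 higher.

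**Figure D3:**
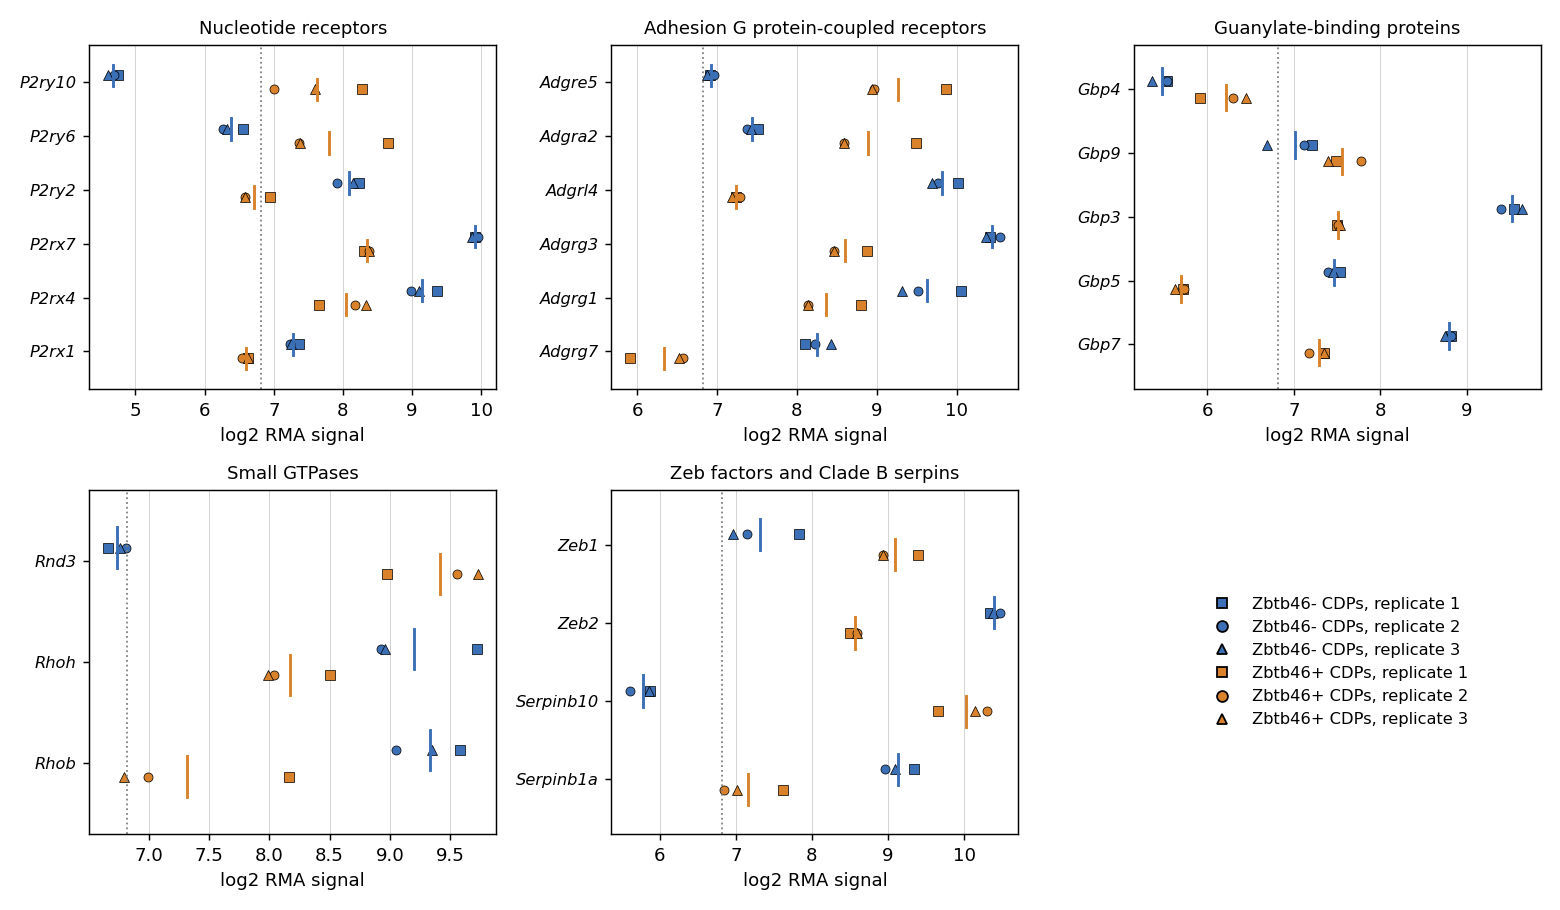
Log2 RMA signal (horizontal axes) on each CDP array in 5 panels of related genes, picked after their values were seen. Marks are as in the plot of leading genes, with blue for Zbtb46-, orange for Zbtb46+ CDPs, bars for group means and a dotted line at 6.82. P2ry10, P2ry6, Adgre5, Adgra2, Gbp4, Gbp9, Rnd3, Zeb1 and Serpinb10 lie higher in Zbtb46+ CDPs and the 15 other genes drawn lie lower, with no overlap of the groups.

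Genes of the actin cytoskeleton were higher more often than lower. Of 89 measured actin and myosin regulators 24 were higher and 6 lower, 34 and 6 without replicate 1 of both groups and 32 and 5 after quantile normalization, with a median of 0.20. Of the 24, all were stable, where the stable share upward was 6.59% among the brighter genes, to which 69 of the 89 belong, and 3.24% among all genes. The list was written with earlier results of these data known, so this excess is a description and not a test. Leaving out Zbtb46- replicate 3 lowered the higher count to 16. Srgap3, a GTPase-activating protein for Rac that is in no list, read 8.41, 7.90 and 7.76 in Zbtb46- and 11.07, 10.59 and 10.61 in Zbtb46+ CDPs (2.73, SE 0.193). Rnd3, an atypical small GTPase that opposes contraction, read 6.66, 6.81 and 6.76 and then 8.98, 9.56 and 9.73, at least 2.68 higher. Rhob, an endosomal small GTPase, read 9.58, 9.05 and 9.35 and then 8.16, 6.99 and 6.79 (-2.01, SE 0.312). Rhoh, a small GTPase of blood cells, was at -1.03, a call lost without Zbtb46+ replicate 2 or Zbtb46+ replicate 3. The formin Fmnl2 (1.57), the actin-binding protein Lsp1 (1.39), the Rac activator Dock5 (1.33) and the severing protein Gsn (1.20) were higher. The other higher members of the list lay between 0.28 (Dock2, a Rac activator of leukocytes) and 0.99 (Myo1g, a membrane-bound myosin).

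Signalling genes were mixed. Rasgrp4, a Ras activator of myeloid cells, read 7.98, 8.05 and 7.90 in Zbtb46- and 10.80, 10.10 and 9.90 in Zbtb46+ CDPs (2.29). Dusp6, a phosphatase that turns off ERK and is itself induced by it, read 9.78, 8.83 and 8.81 and then 8.03, 7.12 and 7.41 (-1.63). Dusp7, its relative, read 10.58, 10.28 and 10.32 and then 9.60, 8.98 and 8.80 (-1.27). Within the MAPK list of 55 measured genes 4 were higher and 7 lower, 8 and 9 without replicate 1 of both groups and 8 and 5 after quantile normalization. Of the Fc receptor and ITAM or ITIM list, 12 of 57 were higher and 6 lower, the latter 2 when Zbtb46- replicate 1, Zbtb46+ replicate 2 or Zbtb46+ replicate 3 was left out and 10 when Zbtb46+ replicate 1 was. Higher members included the inhibitory receptors Pirb (1.70) and Siglecg (1.19), and Lilra6, of the paired immunoglobulin-like receptors (2.26). Pirb and Lilra6 belong to a family of near-identical sequences, so their values may be shared.

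Cytokine and inflammatory genes changed in both directions. Il12a, the p35 subunit of interleukin 12, read 8.39, 8.26 and 8.27 in Zbtb46- and 5.98, 6.27 and 6.14 in Zbtb46+ CDPs and fell by at least 2.18. Il15 fell by at least 1.34, and the chemokine gene Ccl9 by 1.20. Cxcr3, a receptor for interferon-induced chemokines, read 6.96, 7.17 and 7.03 and then 8.30, 7.80 and 8.02 (0.99). The whole list of chemokines, cytokines and their receptors had 6 of 61 higher and 10 lower, 7 and 13 without replicate 1 of both groups, 8 and 8 after quantile normalization, and 16 lower without Zbtb46+ replicate 1 alone. Among 58 NF-kB, TNF and inflammasome genes 3 were higher and 10 lower, 8 and 9 after quantile normalization. The higher count was 1 without Zbtb46- replicate 1 or Zbtb46- replicate 3, and the lower count 6 without Zbtb46+ replicate 3. Mlkl, the executioner of necroptosis, was at -1.07 (SE 0.109). Notch, Wnt and TGF-beta genes had 1 of 50 higher and 4 lower, 11 lower without Zbtb46+ replicate 1 and 2 without Zbtb46- replicate 1, with the Notch regulator Dtx4 at -1.50.

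A few genes of lipid mediators rose. Hpgd, which inactivates prostaglandins, read 6.94, 6.61 and 6.58 in Zbtb46- and 8.33, 8.74 and 8.77 in Zbtb46+ CDPs, at least 1.90 higher. Tbxas1, thromboxane synthase, read 8.20, 8.25 and 8.15 and then 9.81, 9.28 and 9.50 (1.33, SE 0.121). Alox5ap, which feeds arachidonic acid to leukotriene synthesis, was bright in both groups and 0.41 higher. In all 5 of 23 eicosanoid genes were higher and 2 lower, 1 lower after quantile normalization. In the sphingolipid and phospholipid list, with 9 of 43 higher and 4 lower (7 lower without Zbtb46+ replicate 1), Lpcat4, which rebuilds membrane phospholipids, was 1.91 higher with 8.12, 8.12 and 8.23 and then 10.69, 9.78 and 9.73. Pla2g4a, the cytosolic phospholipase that frees arachidonic acid, was at -0.96.

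Vesicle and glycan genes changed in single members more than as groups. Of 86 vesicle trafficking genes 10 were higher and 7 lower with a median of 0.01, and after quantile normalization 20 and 5. Without replicate 1 of both groups there were 14 and 12, and without Zbtb46+ replicate 1 alone 13 lower. Ap1s3, a subunit of the AP-1 clathrin adaptor, read 7.91, 8.06 and 7.72 in Zbtb46- and 9.88, 9.71 and 9.73 in Zbtb46+ CDPs (1.87). Rab43, a Golgi GTPase known to act in cross-presentation by CD8 DCs, read 7.88, 7.47 and 7.44 and then 9.51, 8.69 and 8.76 (1.39). Rab44, a large Rab protein of granulocyte lineages, read 11.05, 11.31 and 11.14 and then 9.91, 9.60 and 9.58 (-1.46). Of 52 glycosylation enzymes 2 were higher and 7 lower, 6 and 10 with the replicate number as a block and 10 and 6 after quantile normalization. Leaving out Zbtb46+ replicate 1 gave 4 and 12, and leaving out Zbtb46+ replicate 2 gave 4 lower. St3gal5, the GM3 ganglioside synthase, was 1.93 higher (8.01, 7.10 and 7.15 against 9.54, 9.24 and 9.26). Mgat5, which branches N-glycans, was at -1.48 (10.58, 10.47 and 10.33 against 9.28, 8.82 and 8.85).

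Ion channels, metal handling and lysosome genes gave few changes each. Of 47 ion channels and pumps 7 were higher and 7 lower, and 4 higher without Zbtb46- replicate 3 or Zbtb46+ replicate 3. The cation channel Trpv2 was at 1.07. Of 28 metal and iron genes 1 was higher and 7 lower, with the endosomal ferrireductase Steap3 at -0.92 and the copper pump Atp7a at 0.72. Of 54 autophagy and lysosome biogenesis genes 3 were higher and 10 lower, 18 lower without replicate 1 of both groups and 22 without Zbtb46+ replicate 1 alone. The higher count was 1 without Zbtb46- replicate 2 or Zbtb46- replicate 3. Tfec, a relative of the lysosome regulator Mitf, read 8.91, 8.61 and 8.74 in Zbtb46- and 6.94, 6.78 and 6.64 in Zbtb46+ CDPs and fell by at least 1.97. Gabarapl1, an autophagosome protein, was at -1.16 and the lysosomal sulfatase Arsb at 1.05.

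Some regulators of stem and progenitor cells fell and other transcription factors rose. Of 105 transcription factors in the list of Hox, Gata, Ets and other stem cell factors 14 were higher and 14 lower, 18 and 22 without replicate 1 and 19 and 14 after quantile normalization. Leaving out Zbtb46- replicate 3 gave 9 higher, and leaving out Zbtb46+ replicate 1 gave 24 lower. Erg, an Ets factor of stem cells, read 9.11, 8.36 and 8.62 in Zbtb46- and 6.64 on all 3 arrays of Zbtb46+ CDPs and fell by at least 2.06 (SE 0.167). Myc, the growth regulator, read 11.53, 11.46 and 11.54 and then 10.36, 9.72 and 9.65 (-1.60, SE 0.165). Bcl6, a repressor known from germinal centres and DCs, read 7.14, 6.88 and 6.89 and then 8.90, 8.50 and 8.54 (1.68). The groups were apart by over 1 unit in each of these 3. Dntt, the DNA polymerase of early lymphoid cells, read 9.24, 7.18 and 7.26 and then 5.61, 5.42 and 5.16. It fell by at least 2.49, and by 1.93 without replicate 1 of both groups, since its Zbtb46- replicate 1 was the highest array.

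Chromatin genes were lower more often than higher as deposited, 14 of 74 (18.9%) against 4 (5.41%). Of the brighter genes, to which 60 of the 74 belong, 21.2% were lower and 6.91% higher, so the list exceeded neither share. After quantile normalization 9 were lower and 10 higher, and the median turned from -0.11 to 0.02. Without replicate 1 of both groups the lower count was 24, without Zbtb46+ replicate 1 alone 28, and without Zbtb46- replicate 1 or Zbtb46- replicate 3 it was 9. The higher count was 1 without Zbtb46- replicate 3. Kdm5b, a demethylase of histone H3 lysine 4, read 8.86, 8.32 and 8.52 in Zbtb46- and 6.71, 6.75 and 6.37 in Zbtb46+ CDPs and fell by at least 1.96. The arginine methyltransferase Prmt5 was at -0.82 and the acetyltransferase Kat2a at -0.95.

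The genes of ribosome assembly were lower almost without exception. Of 46 measured genes for small nucleolar RNPs and rRNA processing 42 were lower and 0 higher, 43 without replicate 1 of both groups, 38 after quantile normalization and 34 without Zbtb46- replicate 3, the fewest on leaving out an array. All 46 had a difference below 0. The median was -0.87, -0.83 without replicate 1 and -0.74 after quantile normalization, where the brighter deciles of all genes had medians between -0.14 and -0.17 as deposited. Gnl3, nucleostemin, a nucleolar GTPase of dividing cells, read 9.47, 9.60 and 9.96 in Zbtb46- and 7.84, 8.09 and 8.29 in Zbtb46+ CDPs (-1.60, SE 0.143). Utp4, part of the small subunit processome, read 9.78, 9.64 and 9.69 and then 8.37, 8.10 and 7.87 (-1.59). Dkc1, the pseudouridine synthase dyskerin, read 10.60, 10.63 and 10.72 and then 9.11, 9.55 and 9.53 (-1.25). In these genes the nearest arrays of the groups were over 1 unit apart.

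The promoters were described by the E-box CACGTG, a word that Myc is known to bind. A promoter was taken as the 250 bases upstream of the annotated start in RefSeq (GRCm38.p6), matched by gene for 40 of the 46 genes, and the word reads the same on both strands. It was present in 3 of the 40 (7.5%), in 7.04% of the 15563 promoters of all genes tested and in 9.1% of those of brighter genes. The stably lower genes had it in 8.65% of 1156 promoters and the stably higher genes in 7.9% of 519. The window holds no bases after the start, so these shares cannot speak for or against a part of Myc, which was not tested. An AP-1 element (TGANTCA, either strand) was present in 5.78% of the promoters of stably higher genes, in 6.09% of all and in 3.65% of those of brighter genes. A word in such a window is a description and does not show binding, nor does its lack. The windows below show a strong fall without the word and the members with it whose falls were the largest, with the E-box in capitals. They are written 5' to 3' in the direction of transcription.
Gnl3: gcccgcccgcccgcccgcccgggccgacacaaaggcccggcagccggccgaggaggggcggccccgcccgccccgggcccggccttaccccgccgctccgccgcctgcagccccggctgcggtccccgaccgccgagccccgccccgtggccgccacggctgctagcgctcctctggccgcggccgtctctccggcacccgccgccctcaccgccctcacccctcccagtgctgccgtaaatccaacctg
Nop2: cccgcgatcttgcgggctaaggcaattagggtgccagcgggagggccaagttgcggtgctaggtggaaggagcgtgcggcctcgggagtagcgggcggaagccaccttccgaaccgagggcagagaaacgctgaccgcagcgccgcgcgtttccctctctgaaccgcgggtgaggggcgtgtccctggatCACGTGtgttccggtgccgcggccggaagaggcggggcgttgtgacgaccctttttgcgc
Imp4: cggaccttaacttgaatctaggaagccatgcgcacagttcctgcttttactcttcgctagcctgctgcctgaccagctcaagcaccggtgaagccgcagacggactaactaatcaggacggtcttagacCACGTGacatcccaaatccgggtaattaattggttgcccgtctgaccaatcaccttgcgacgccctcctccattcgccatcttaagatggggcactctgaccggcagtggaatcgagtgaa

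The Gnl3 window lies at chr14:31019132-31019381 on the minus strand and has no E-box. That of Nop2, a methyltransferase of 28S rRNA, lies at chr6:125131633-125131882 on the plus strand, with the first base of the E-box at -60 from the start. That of Imp4, of the U3 nucleolar particle, lies at chr1:34439579-34439828 on the plus strand, with the E-box at -121. Nop2 read 10.05, 9.74 and 9.74 in Zbtb46- and 9.20, 8.57 and 8.50 in Zbtb46+ CDPs (-1.09). Imp4 read 10.54, 10.31 and 10.27 and then 10.08, 9.52 and 9.41 (-0.70, adjusted p = 0.0211), so both differences were smaller than that of Gnl3. The call of Imp4 was lost without Zbtb46- replicate 1, Zbtb46+ replicate 2 or Zbtb46+ replicate 3.

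The rest of the protein synthesis machinery went the same way by smaller amounts. Of 19 genes for RNA polymerases I and III, which include initiation factors such as Rrn3, 9 were lower, also after quantile normalization. Polr1b, the second largest subunit of the polymerase that makes rRNA, read 9.93, 9.41 and 9.33 in Zbtb46- and 8.80, 8.0 and 7.98 in Zbtb46+ CDPs (-1.30). Of 28 cytosolic ribosomal protein genes 15 were lower as deposited, 9 after quantile normalization and 7 without Zbtb46- replicate 3, with a median of -0.29. Rpl14 had the largest stable fall among them, with 11.82, 11.62 and 11.78 and then 10.68, 11.04 and 11.13 (-0.79). Of 26 translation factors 17 were lower, 10 after quantile normalization and 10 without Zbtb46- replicate 3 (median -0.47). Eif2b3, of the factor that recharges eIF2, was at -1.08 and the release factor Gspt1 at -0.84. Of 18 aminoacyl-tRNA synthetases 13 were lower, 9 after quantile normalization and 8 without Zbtb46- replicate 1 (median -0.50), with Tars at -1.01. No member of these 4 lists was called higher under either check alone, and 1 member of the polymerase list was with both checks together.

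Protein folding and import followed. Of 29 chaperones 20 were lower, 22 without replicate 1 and 15 after quantile normalization (median -0.66). Hspa9, the mitochondrial Hsp70, read 10.95, 10.63 and 10.69 in Zbtb46- and 9.09, 9.18 and 9.44 in Zbtb46+ CDPs (-1.52, SE 0.126). Hsph1, a nucleotide exchange factor for Hsp70, read 10.11, 10.00 and 9.96 and then 8.58, 8.50 and 8.55 (-1.48), and the chaperonin subunit Cct3 was at -0.90. Of 35 mitochondrial ribosomal protein genes 23 were lower, 11 after quantile normalization and 12 without Zbtb46- replicate 3 (median -0.53). Of 28 mitochondrial import and carrier genes 17 were lower, 11 after quantile normalization and 8 without Zbtb46- replicate 1, Zbtb46- replicate 3 or Zbtb46+ replicate 2 (median -0.52). Timm10, a chaperone of the intermembrane space, was at -0.88. Nuclear transport genes had 15 of 31 lower, 10 after quantile normalization and 9 without Zbtb46- replicate 1, with the import receptor Ipo7 at -1.16.

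The counts of proteasome and spliceosome genes varied with the scaling and the arrays used. Of 30 proteasome subunits 13 were lower as deposited, 6 after quantile normalization and 4 without Zbtb46- replicate 1 or Zbtb46- replicate 3. In the main model all 30 had a difference below 0 (median -0.41). Without replicate 1 of both groups and after quantile normalization, 1 was lower (median -0.15), where 16.8% of the brighter genes were. Psmd3, of the regulatory particle, was at -0.73. Of 28 spliceosome and RNA-binding genes 7 were lower as deposited, 2 after quantile normalization, and also 2 without Zbtb46- replicate 1, Zbtb46- replicate 3 or Zbtb46+ replicate 2 (median -0.24).

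**Figure D4:**
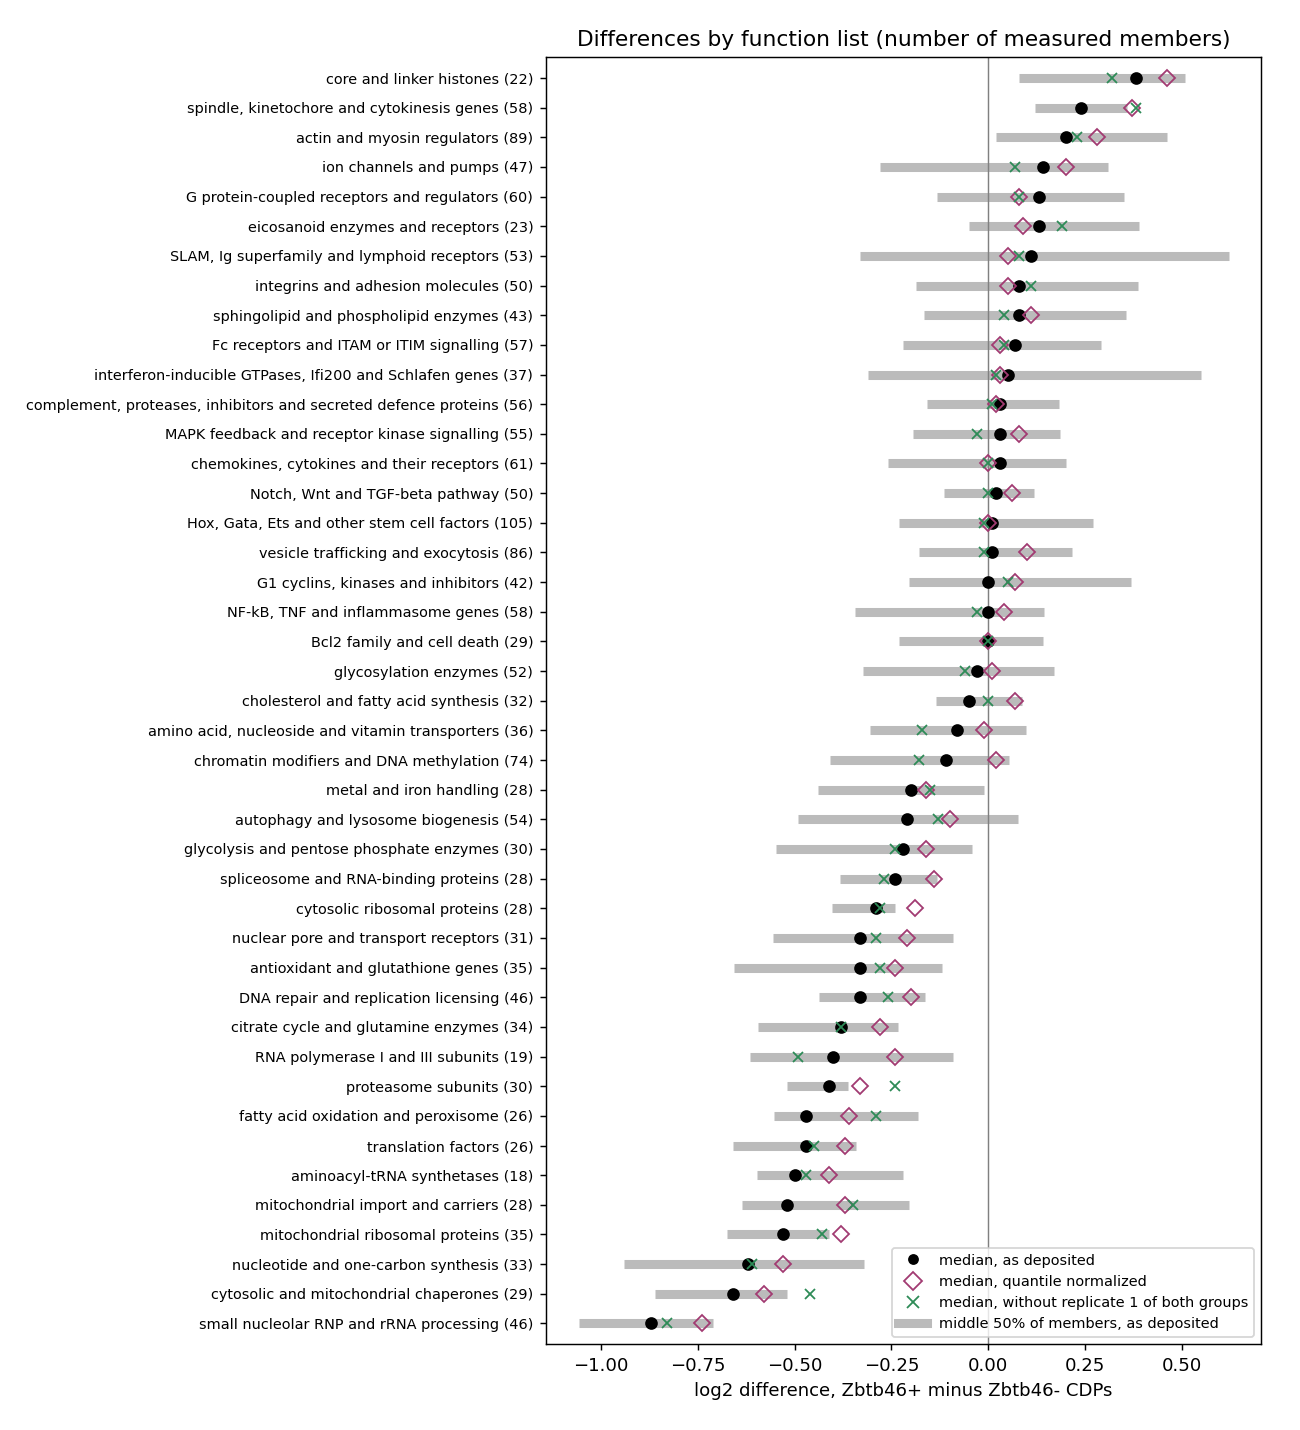
Log2 differences between Zbtb46+ and Zbtb46- CDPs (horizontal axis) for 43 function lists, with the number of measured members in brackets. Black circles are medians as deposited, purple diamonds after quantile normalization and green crosses without replicate 1 of both groups, and grey bars span the middle 50% of members. The rRNA processing list is lowest with medians of -0.87, -0.74 and -0.83, and histones and spindle genes are at the top with medians of 0.38 and 0.24 as deposited.

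Biosynthetic and mitochondrial metabolism was lower as well. Of 33 genes of nucleotide and one-carbon synthesis 19 were lower and 1 higher, 23 lower without replicate 1 and 17 after quantile normalization (median -0.62). Srm, spermidine synthase, read 10.78, 10.58 and 10.69 in Zbtb46- and 9.84, 8.65 and 9.10 in Zbtb46+ CDPs (-1.49). Shmt2, the mitochondrial enzyme that takes a carbon from serine, read 11.27, 11.47 and 11.50 and then 10.40, 10.28 and 10.06 (-1.17), and Ppat, the first step of purine synthesis, was at -1.13. Of 34 citrate cycle and glutamine enzymes 15 were lower, 9 after quantile normalization and 6 without Zbtb46- replicate 1 (median -0.38), with the dehydrogenases Idh1 at -1.23 and Idh2 at -0.90. Of 26 fatty acid oxidation and peroxisome genes 10 were lower, 8 after quantile normalization and 4 without Zbtb46- replicate 1. The oxidation enzyme Hadh was at -1.36. Of 35 antioxidant and glutathione genes 14 were lower, 11 after quantile normalization, with the mitochondrial peroxidase Prdx3 at -0.98.

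Glycolysis had members on both sides, 12 of 30 lower and 4 higher, 10 and 4 after quantile normalization and 7 lower without Zbtb46+ replicate 2. The higher count was 2 without any single array other than the replicates 1. Hk3, the hexokinase of myeloid cells, read 9.45, 9.57 and 9.49 in Zbtb46- and 8.29, 8.15 and 8.17 in Zbtb46+ CDPs (-1.30, SE 0.091). Aldoa, the main aldolase, was at -0.81 and Tpi1, triose phosphate isomerase, at -0.86. Phosphofructokinase subunits were divided, with Pfkl at -0.79 and Pfkp, picked after its value was seen, at 0.64. Of 32 cholesterol and fatty acid synthesis genes 2 were higher and 4 lower (8 lower without Zbtb46+ replicate 1 and 2 without Zbtb46- replicate 1, Zbtb46+ replicate 2 or Zbtb46+ replicate 3), and after quantile normalization 5 were higher and 4 lower and the median of -0.05 became 0.07. The elongase Elovl6 was at -0.50 and the squalene synthase Fdft1 at 0.44. Transporters of amino acids, nucleosides and vitamins had 2 of 36 higher and 5 lower, 2 lower without Zbtb46- replicate 1 or Zbtb46+ replicate 3 and 15 without Zbtb46+ replicate 1. Slc43a1, an amino acid exporter, was at -1.56 and Slc15a3, a lysosomal peptide transporter, at 1.35.

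Cell division genes did not follow the growth genes. Of 58 spindle, kinetochore and cytokinesis genes 10 (17.2%) were higher and 0 lower as deposited. The higher count was 29 without replicate 1 of both groups, 20 after quantile normalization and 45 with both. Of the brighter genes, to which 57 of the 58 belong, 6.91% were higher as deposited. That share was 9.83% without replicate 1 of both groups, 13% after quantile normalization and 15.7% with both. In the main model 54 of the 58 had a difference above 0, with a median of 0.24. Leaving out Zbtb46+ replicate 1 alone gave 28. Kif23, a kinesin of cytokinesis, read 11.02, 11.11 and 11.02 in Zbtb46- and 11.47, 11.69 and 11.74 in Zbtb46+ CDPs (0.58, SE 0.082, adjusted p = 0.00192). Ccnf, cyclin F, read 10.32, 9.99 and 10.09 and then 10.96, 10.72 and 10.61 (0.63), and Cdca8, of the chromosomal passenger complex, was 0.53 higher. The groups did not overlap in these genes, but the differences were below 1.

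DNA replication licensing and repair genes had 16 of 46 lower (34.8%) and 1 higher, where 21.2% of the brighter genes were lower as deposited. After quantile normalization 6 of the 46 were lower, where 13.8% of the brighter genes were. Stable falls numbered 5 of 46, where the stable share among brighter genes was 13.4%. The list thus did not exceed the share of brighter genes after quantile normalization or in stable calls. It did exceed it without replicate 1 of both groups, where 16 of 46 were lower against 28% of brighter genes. Without Zbtb46- replicate 1 or Zbtb46- replicate 3 the lower count was 5. Mcm4, of the helicase that opens origins, read 10.29, 10.20 and 10.31 in Zbtb46- and 9.69, 9.64 and 9.75 in Zbtb46+ CDPs (-0.57, SE 0.089). Mcm2 (-0.53), Mcm3 (-0.58) and the origin protein Orc1 (-0.67) were similar. Replication-dependent histones had 6 of 22 higher and 1 lower, 11 higher with the replicate number as a block, 10 after quantile normalization and 3 without Zbtb46- replicate 2 or Zbtb46- replicate 3. H4c3 read 10.76, 10.30 and 10.90 and then 11.94, 11.37 and 11.49 (0.95). H2bc4 was the exception with 9.80, 9.37 and 9.83 and then 7.91, 6.69 and 7.12 (-2.43, SE 0.269). Histone genes of a class are near copies of each other, so reads of a probe set may come from several.

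The regulators of the G1 phase were mixed, 10 of 42 higher and 5 lower, and 11 lower without Zbtb46+ replicate 1. Cdk6, the G1 kinase of progenitors, read 12.01, 11.81 and 11.74 in Zbtb46- and 10.32, 10.20 and 10.21 in Zbtb46+ CDPs (-1.61, SE 0.087). Ccne1, cyclin E1, read 8.92, 8.93 and 8.87 and then 9.89, 9.68 and 9.52 (0.79), and the repressor E2f7 was 0.90 higher. Cdkn2d, an inhibitor of Cdk4 and Cdk6, was 0.77 higher. Of 29 Bcl2 family and cell death genes 3 were higher and 3 lower, 3 and 7 without replicate 1 of both groups, 4 and 2 after quantile normalization, and 8 lower without Zbtb46+ replicate 1 alone. Bcl2 read 11.63, 11.53 and 11.45 and then 10.60, 10.63 and 10.63 (-0.92), whereas its relative Mcl1, also a guard of survival, read 9.26, 9.22 and 9.27 and then 9.64, 9.78 and 9.84 (0.51).

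**Figure D5:**
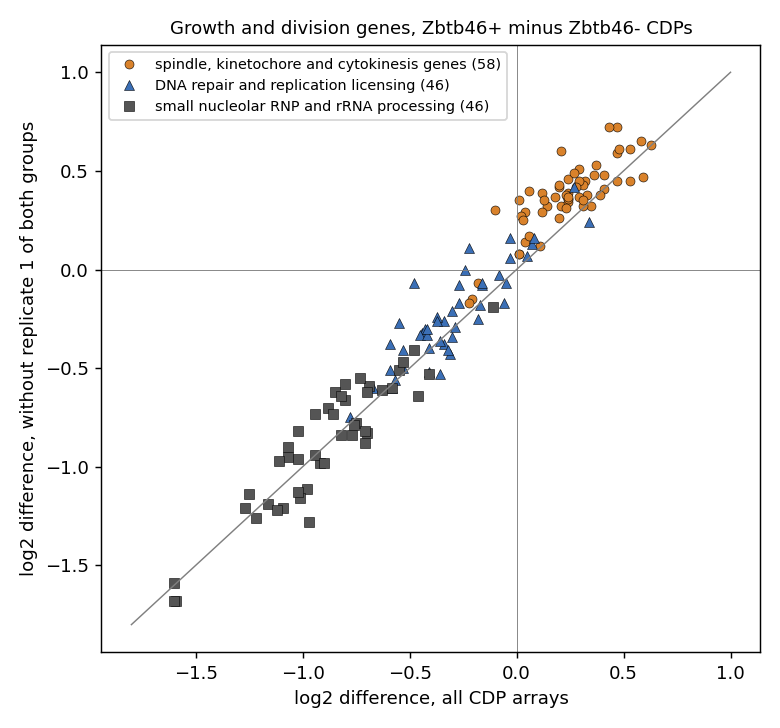
Log2 difference between Zbtb46+ and Zbtb46- CDPs with all CDP arrays (horizontal axis) against the same without replicate 1 of both groups (vertical axis), for 58 spindle genes (orange), 46 replication licensing and repair genes (blue) and 46 rRNA processing genes (grey squares). Each mark is a gene and the diagonal marks equal values, so the lists keep their order from rRNA processing (median -0.87) through licensing and repair (median -0.33) to spindle genes (median 0.24).

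Markers of neighbouring lineages were checked as whole lists. Of 13 cDC2 markers 5 were higher and 2 lower, 5 and 4 without replicate 1 of both groups and 6 and 2 after quantile normalization. The lower count was 0 without Zbtb46- replicate 1, Zbtb46+ replicate 2 or Zbtb46+ replicate 3, and 4 without Zbtb46+ replicate 1. Among the higher members, the lectin gene Cd209a read 7.42, 7.21 and 7.41 in Zbtb46- and 9.96, 9.84 and 9.84 in Zbtb46+ CDPs (2.54, SE 0.153). Notch2, a receptor needed for splenic cDC2, was 0.94 higher. Over the 13 cDC2 markers the median difference was only 0.12, with 8 differences above 0 and 5 below, the lowest at -0.56. The summed signal of that list was 9065, 8084 and 8047 and then 13208, 11483 and 11414, and 3 of the 13 were dim on all CDP arrays. The part of such cells in these values was not tested. Of 12 plasmacytoid DC markers 2 were higher and 1 lower, with sums of 5274 to 7255 over the 6 arrays. Of 13 monocyte and macrophage markers 2 were higher and 5 lower, 4 and 4 without replicate 1 of both groups, and 3 lower without Zbtb46- replicate 1 or Zbtb46+ replicate 2, with sums of 16626 to 20639, and Ms4a6c, the brightest, did not pass the test (0.08, adjusted p = 0.772) but did without replicate 1 of both groups (0.24, adjusted p = 0.0385). Leaving out single arrays gave 1 to 4 higher monocyte markers, the most without Zbtb46+ replicate 1. Erythroid and megakaryocyte markers had 1 of 10 higher and 0 lower with sums of 763 to 893. Among 10 mast cell and basophil markers 1 was lower, the basophil protease Mcpt8 (-2.04), with sums of 2141 to 2832.

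Comparison with pre-CD8 DCs, given as levels with no test, placed several of these genes. Gnl3 had a mean of 8.67 in pre-CD8 DCs, above its mean of 8.07 in Zbtb46+ CDPs and below 9.68 in Zbtb46- CDPs. Myc had a mean of 10.69 there, also between 9.91 and 11.51. By contrast the mean of Cd69 was 5.78 and that of Ctsg 6.11, below both CDP groups. P2rx7 had a mean of 9.31, nearer to the 9.91 of Zbtb46- than to the 8.35 of Zbtb46+ CDPs. Most of the 30 largest stable rises had a higher mean in pre-CD8 DCs than in Zbtb46+ CDPs, such as H2-Aa (13.61 against 11.09) and Slamf7 (11.28 against 9.40). The exceptions were Cd7 (10.00 against 11.16), Plxdc1 (9.60 against 10.04), Hivep2 (8.09 against 8.17), L1cam (10.29 against 10.36) and Lilra6 (9.71 against 9.76).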

How the data were processed

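RNA of sorted marrow cells was measured on 9 Affymetrix arrays in 3 groups of 3. The deposited values are linear signal intensity per probe set, made by the authors with RMA in Affymetrix Expression Console, per the submitters' processing notes; versions are not given in the sources used here. Of 28853 probe sets, 21789 had 1 gene symbol in the platform annotation, 1621 had several and 5443 were not listed. For each of 19938 genes the probe set with the highest mean over the 9 arrays was kept (999 genes had several). The log2 of the deposited intensity was fitted with limma 3.58.1 (R 4.3.3) on group means over all 9 arrays, with empirical Bayes moderation and Benjamini-Hochberg adjustment over all genes; tables and figures were made in Python 3.11.15. The median residual SD was 0.136. The scripts were tested on simulated data.

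Residual correlations of same-numbered CDP arrays were 0.51, 0.42 and 0.36. They were 0.38 for Zbtb46- replicate 3 with Zbtb46+ replicate 2 and 0.15 for Zbtb46- replicate 2 with Zbtb46+ replicate 3. Replicate 1 of a group gave -0.31 to -0.51 with replicates 2 and 3 of the other. These values set replicate 1 apart but do not pair replicates 2 and 3 by number, and the labels give no pairing. The members and the gene lists were chosen with earlier results of these data known. Named genes were the 30 largest stable rises and falls other than cDC1 markers and predicted genes, up to 6 stable members of each list, the progenitor genes used to check the labels, and the brightest and the most replicate 1-dependent member of each marker list. Xist, Kdm5d, Gbp4, Gbp9, Rhoh, P2rx1, Adgra2, Adgrg1, Nop2, Imp4, Pfkp, Dock2 and Myo1g were named after their values were seen. Alternatives were the 6 CDP arrays alone, quantile normalization, median centring, leaving out arrays, the replicate number as a block, dropping the dimmest 30% of genes, averaging probe sets, a trended and robust moderation, and an adjusted p under 0.01. Promoters were taken from RefSeq.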

Additional observations from a re-analysis of the deposited data

How the results depend on the processing

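The count of higher genes, 768 in the main model, was 470 with the 6 CDP arrays alone, 1216 after quantile normalization, 1737 without replicate 1 of both groups, 1908 with both of these, and 370 at an adjusted p under 0.01. The count of lower genes, 2105, was 1388 with the 6 CDP arrays alone and 1035 at an adjusted p under 0.01. Leaving out 1 array at a time gave 452 to 1999 higher and 1310 to 3269 lower genes. With the replicate number as a block there were 1009 higher and 2451 lower genes over 9 arrays and 988 and 2186 over the 6 CDP arrays. The cause of these shifts was not tested. Of 297 called differences among named genes, none was lost after quantile normalization or median centring, 1 (Zbtb46) without replicate 1, 15 without replicate 1 and after quantile normalization (Bst2, Cat, Eci1, Fads1, Fads2, Nup107, Nup43, Orc2, Psmc5, Psmd1, Psmd11, Psmd7, Rplp1, Slc30a5 and Zbtb46), and 27 with the 6 CDP arrays alone. Most of these genes were named from the stable calls. Such calls are by definition also made after quantile normalization and without replicate 1 of both groups. The few losses under each of these 2 settings alone thus follow from the choice of genes and do not test it. Leaving out 1 array ended 1 call (Zbtb46+ replicate 1) to 26 calls (Zbtb46- replicate 3), and none reversed. Over 9 arrays the replicate block ended 0 of the calls among named genes, and over the 6 CDP arrays it ended 4 (Atg14, Fanca, Septin3 and Zbtb46). The number of arrays and signals near the table median limit what could be detected.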
